A study of Mus musculus with 12 samples.

Results

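The 10 genes described here mark tissue macrophages, antigen presentation or leukocytes in general, and they were read in cardiomyocytes and in cultured nonmyocytes of the adult mouse heart. They were taken by symbol from the polyadenylated RNA count table, which holds 57683 genes: C1qa, C1qb, C1qc, Cd74, H2-Aa, H2-Ab1, Cd68, Csf1r, Lyz2 and Ptprc. All 10 symbols had exactly 1 entry, and 8 of the 10 had enough counts to be tested. Both fractions came from the hearts of 3 female mice of the inbred strain FVB/NJ, aged 12 weeks, with no genetic change or treatment named. Cardiomyocytes, the contracting muscle cells, gave RNA directly after isolation. Nonmyocytes were grown in dishes first and are labelled as mostly fibroblasts, which make connective tissue. Labels disagree on that culture, since the protocol has 2 passages where the cell type label has P1. Fraction and culture therefore cannot be told apart in any value given here. Each fraction had 3 libraries of polyadenylated RNA and 3 of small RNA, 12 in all, and nothing ties a library number to a heart. The p-values thus set the difference between fractions against the spread among these libraries, part of which may be technical.

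Macrophages are phagocytes that live in most organs, and in the healthy heart they are among the most common immune cells. C1q is the recognition molecule of the classical complement pathway and is built from the products of C1qa, C1qb and C1qc, which tissue macrophages make. MHC class II molecules present peptides to helper T cells and assemble on the invariant chain encoded by Cd74.

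Total counts ran from 5956831 to 26851830 in the cardiomyocyte libraries and from 8126422 to 10792544 in the nonmyocyte libraries. Levels are CPM, counts relative to library size, scaled by the trimmed mean of M values (TMM), and 3 counts in 1 library stand for 0.145 to 0.581 CPM. Positive log2 fold changes mean a higher level in cardiomyocytes, and each has its standard error (SE), from edgeR's quasi-likelihood test. Adjusted p is by Benjamini-Hochberg over 14734 genes, and a gene with an adjusted p under 0.05 is called. The labels were checked against markers of each fraction. All 8 cardiomyocyte markers, such as Myh6, were higher in cardiomyocytes (median log2 fold change 7.19), and all 10 fibroblast markers, such as Col1a1, were lower (median -4.70).

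Of the 10 genes, 4 were higher in cardiomyocytes (C1qa, C1qb, C1qc and Cd74) and 2 were lower (Cd68 and Csf1r). Over all tested genes, 31.6% were called higher and 32.1% lower, 63.7% in all, so calls were common in this comparison. Library totals in place of TMM turned the split of called genes from 49.6% higher to 30.9% higher and moved the median log2 fold change by -0.68. The same 6 members were called in the same direction there. H2-Ab1 and Lyz2 were tested and not called, and H2-Aa and Ptprc had too few counts to pass the filter. C1qa, C1qb, C1qc and Cd74 passed that filter through the cardiomyocyte libraries alone, so the counts of calls describe these genes and support nothing. With no filter on low counts all 10 were tested, the same 4 were higher, the same 2 were lower and 4 were not called, beside 16.9% and 14.7% of all 33437 genes. In these bulk libraries, fewer cells of a type and less RNA per cell cannot be told apart.

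**Figure D1:**
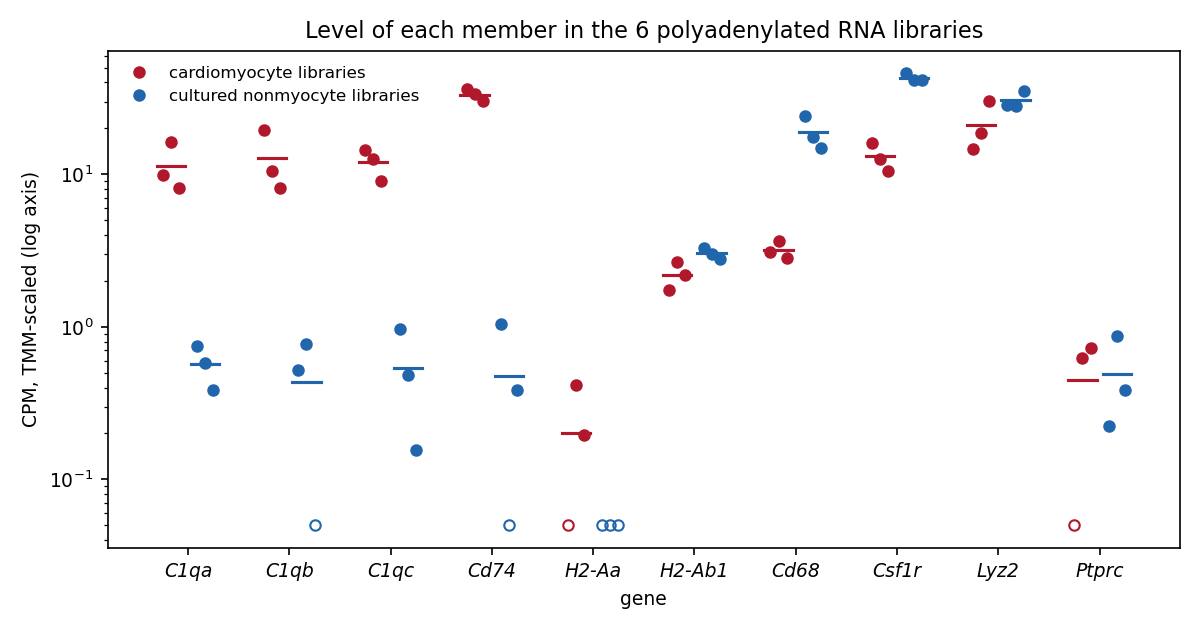
Level of each of the 10 genes in the 6 polyadenylated RNA libraries (CPM on a log axis; points are libraries, horizontal lines are means, open circles are libraries with 0 counts). The C1q genes and Cd74 lie higher in the 3 cardiomyocyte libraries, Cd68 and Csf1r lie higher in the 3 nonmyocyte libraries, and Lyz2 overlaps.

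The C1q genes sit side by side on the minus strand of chromosome 4. C1qb (ENSMUSG00000036905) spans chr4:136436044-136442102 in build mm9, C1qc (ENSMUSG00000036896) chr4:136445719-136448980 and C1qa (ENSMUSG00000036887) chr4:136451832-136454718. The gap from C1qb to C1qc is 3616 bases and that from C1qc to C1qa is 2851 bases. RefSeq promoter windows of GRCm38.p6 held 6 of the 10 genes: C1qb, C1qc, H2-Aa, Cd68, Lyz2 and Ptprc. The windows of C1qb and C1qc are shown because these neighbours were higher together. They hold the 250 bases before the start site, on the gene's own strand, at chr4:136886201-136886450 and chr4:136892915-136893164 (both minus strand). Capitals mark GAGGAA or its reverse complement TTCCTC, a core bound by the macrophage factor PU.1.

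C1qb: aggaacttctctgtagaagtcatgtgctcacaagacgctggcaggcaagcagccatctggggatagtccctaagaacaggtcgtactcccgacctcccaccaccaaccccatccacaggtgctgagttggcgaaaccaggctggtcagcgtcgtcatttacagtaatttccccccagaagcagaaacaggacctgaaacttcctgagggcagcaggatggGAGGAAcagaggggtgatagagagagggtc

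C1qc: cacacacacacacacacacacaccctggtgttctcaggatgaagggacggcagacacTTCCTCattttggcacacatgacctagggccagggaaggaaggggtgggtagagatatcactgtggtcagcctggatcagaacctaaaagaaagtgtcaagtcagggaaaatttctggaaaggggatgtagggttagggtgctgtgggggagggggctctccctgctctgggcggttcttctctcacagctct

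The match lies 30 bases before the start site in C1qb and, on the other strand, 193 bases before it in C1qc. On either strand, 23.3% of 32851 windows of that length hold these letters, so the match describes these 2 windows and shows no binding. The motifs given here were chosen after the sequences were seen.

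C1qa, the A chain, stood at 9.88, 16.3 and 8.10 CPM in cardiomyocyte libraries 1, 2 and 3, and at 0.746, 0.580 and 0.388 CPM in nonmyocyte libraries 1, 2 and 3. Every cardiomyocyte library lay above every nonmyocyte library, as in 34.1% of all tested genes. It had a log2 fold change of 4.30 ± 0.47 (SE; adjusted p = 3.35e-06, edgeR quasi-likelihood).

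C1qb, the B chain, stood at 19.4, 10.6 and 8.14 CPM in the cardiomyocyte libraries, and at 0.522, 0.773 and 0 CPM in the nonmyocyte libraries. The fractions did not overlap, and the spread among cardiomyocyte libraries was wider than for the other 2 chains. It had a log2 fold change of 4.87 ± 0.68 (SE; adjusted p = 3.47e-05, edgeR quasi-likelihood).

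C1qc, the C chain, stood at 14.5, 12.6 and 9.02 CPM in the cardiomyocyte libraries, and at 0.970, 0.483 and 0.155 CPM in the nonmyocyte libraries. Again the fractions did not overlap. Its log2 fold change was 4.44 ± 0.53 (SE; adjusted p = 7.96e-06, edgeR quasi-likelihood).

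The 3 chains thus had close fold changes, and their 95% intervals overlapped (3.29 to 5.31, 3.40 to 6.34 and 3.30 to 5.58 for C1qa, C1qb and C1qc). The nonmyocyte mean was 5.01% of the cardiomyocyte mean for C1qa, 3.40% for C1qb and 4.45% for C1qc. For comparison, the 8 cardiomyocyte markers stood in nonmyocytes at 0.637% to 0.762% of their cardiomyocyte level. Per kilobase of exon the cardiomyocyte means were 11.0 ± 4.13 CPM for C1qa, 11.7 ± 5.43 for C1qb and 6.24 ± 1.45 for C1qc (SD, n = 3). C1qa and C1qb were not separated by their libraries, and C1qc lay below C1qa in all of them. The highest chain differed between libraries. Of the summed C1q level per kilobase, C1qb made up 51.1% and C1qc 21.6% in cardiomyocyte library 1, while C1qa made up 49.1% and C1qc 20.5% in cardiomyocyte library 2.

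Cd74 (ENSMUSG00000024610, mm9 chr18:60963502-60972300, plus strand) encodes the invariant chain that escorts class II molecules. It stood at 36.0, 33.5 and 30.0 CPM in the cardiomyocyte libraries, and at 1.04, 0 and 0.388 CPM in the nonmyocyte libraries. The cardiomyocyte libraries were close to each other, and all lay above the nonmyocyte libraries. The log2 fold change was 6.00 ± 0.53 (SE; 95% interval 4.85 to 7.15; adjusted p = 4.59e-07, edgeR quasi-likelihood), the highest among the members tested.

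H2-Aa (ENSMUSG00000036594, mm9 chr17:34419700-34424745, minus strand) encodes the alpha chain of the class II molecule I-A. It had 0, 8 and 4 counts in the cardiomyocyte libraries and 0 counts in each nonmyocyte library. Over the group this is at least 3.25-fold higher in cardiomyocytes, set against a floor of 3 counts over the nonmyocyte group. With no filter, edgeR's quasi-likelihood test gave an adjusted p of 0.126 (unadjusted p 0.0481). Of its exon bases, 69.6% lie in a long noncoding RNA gene that had 0 counts in every library, and how reads in shared bases were counted is not given in the sources used here. Its promoter window is shown because it holds 2 of the boxes by which class II promoters are known, at chr17:34287824-34288073 in GRCm38.p6 (minus strand, the 250 bases before the start site).

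H2-Aa: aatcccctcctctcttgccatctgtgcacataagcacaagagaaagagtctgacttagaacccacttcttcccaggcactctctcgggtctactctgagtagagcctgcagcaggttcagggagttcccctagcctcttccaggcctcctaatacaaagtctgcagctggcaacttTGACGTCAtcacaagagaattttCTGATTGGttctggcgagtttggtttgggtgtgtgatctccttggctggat

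Capitals mark TGACGTCA, an X2 box that reads the same on both strands, 74 bases before the start site, and CTGATTGG, a Y box, 51 bases before it. On either strand, 1.55% of all windows hold the first and 3.83% hold the second. These letters stand before a gene with few or no counts in either fraction.

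H2-Ab1 (ENSMUSG00000073421, mm9 chr17:34400185-34406355, plus strand) encodes the beta chain that pairs with the product of H2-Aa. It stood at 1.74, 2.64 and 2.18 CPM in the cardiomyocyte libraries, and at 3.28, 2.996 and 2.79 CPM in the nonmyocyte libraries. Every cardiomyocyte library lay below every nonmyocyte library, as in 36.3% of all tested genes. Its log2 fold change was -0.44 ± 0.45 (SE; 95% interval -1.42 to 0.54; adjusted p = 0.417, edgeR quasi-likelihood), which is not a call. With library totals it was called lower (-1.13, adjusted p = 0.0363).

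The class II genes thus did not follow each other. Per kilobase of exon, the ratio of Cd74 to H2-Ab1 was 17.2, 10.6 and 11.5 in the cardiomyocyte libraries and 0.265, 0 and 0.116 in the nonmyocyte libraries. Cd74 was well above H2-Ab1 in the first fraction and below it in the second. Class II genes vary strongly between mouse strains, and whether FVB/NJ reads aligned fully to the reference was not tested.

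Cd68 (ENSMUSG00000018774, mm9 chr11:69477715-69479655, minus strand) encodes a lysosomal glycoprotein abundant in macrophages and present at lower levels in other cells. It stood at 3.10, 3.63 and 2.81 CPM in the cardiomyocyte libraries, and at 24.3, 17.7 and 15.0 CPM in the nonmyocyte libraries. All cardiomyocyte libraries lay below the nonmyocyte libraries. The log2 fold change was -2.57 ± 0.31 (SE; 95% interval -3.25 to -1.89; adjusted p = 1.00e-05, edgeR quasi-likelihood). Its promoter window is shown for contrast with those of the C1q genes, whose fold change had the opposite sign (GRCm38.p6, chr11:69666171-69666420, minus strand, the 250 bases before the start site).

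Cd68: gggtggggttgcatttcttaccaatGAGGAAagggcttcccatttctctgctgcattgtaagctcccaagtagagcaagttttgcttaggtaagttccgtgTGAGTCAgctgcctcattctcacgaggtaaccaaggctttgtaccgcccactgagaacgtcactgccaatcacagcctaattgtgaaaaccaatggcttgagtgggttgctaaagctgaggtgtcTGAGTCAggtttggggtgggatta

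Capitals mark GAGGAA, 225 bases before the start site, and 2 copies of TGAGTCA, an AP-1 site, 149 and 24 bases before it. TGAGTCA or its reverse complement TGACTCA stands in 4.46% of all windows. The PU.1 core letters were thus present in windows of genes that were higher and of 1 that was lower in cardiomyocytes.

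Csf1r (ENSMUSG00000024621, mm9 chr18:61265226-61290791, plus strand) encodes the receptor that macrophages need for survival. It stood at 16.1, 12.6 and 10.6 CPM in the cardiomyocyte libraries, and at 45.9, 41.6 and 41.6 CPM in the nonmyocyte libraries. The fractions did not overlap. The log2 fold change was -1.74 ± 0.22 (SE; 95% interval -2.21 to -1.27; adjusted p = 1.35e-05, edgeR quasi-likelihood).

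The cardiomyocyte mean was 16.8% of the nonmyocyte mean for Cd68 and 30.4% for Csf1r. The 10 fibroblast markers stood in cardiomyocytes at 1.51% to 19.2% of their nonmyocyte level (median 3.70%), so Csf1r lay above that range. Neither gene shares exon bases with another annotated gene. Levels of neighbouring genes, chosen after their values were seen, were read beside them. Eif4a1 (782 bases from Cd68, same strand) ran from 3.49 to 5.04 CPM in cardiomyocytes and from 2.51 to 3.88 CPM in nonmyocytes, with 76.9% of its exon bases shared. Farther off on that strand, Mpdu1 (1570 bases; -0.71, adjusted p = 0.00737) and Senp3 (6961 bases; -0.67, adjusted p = 0.00679) were called lower in cardiomyocytes by edgeR's quasi-likelihood test, as Cd68 was, with smaller log2 fold changes. Hmgxb3 (141 bases from Csf1r, opposite strand) ran from 39.8 to 47.1 CPM in cardiomyocytes and from 50.9 to 58.5 CPM in nonmyocytes. The library preparation does not keep the strand.

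Lyz2 (ENSMUSG00000069516, mm9 chr10:116714390-116719343, minus strand) encodes lysozyme M, an antibacterial enzyme of macrophages and neutrophils. It stood at 14.7, 18.5 and 30.2 CPM in the cardiomyocyte libraries, and at 28.5, 28.1 and 35.0 CPM in the nonmyocyte libraries. Cardiomyocyte library 3 reached into the nonmyocyte range, and the other two lay below it. Its log2 fold change was -0.51 ± 0.26 (SE; 95% interval -1.08 to 0.06; adjusted p = 0.107, edgeR quasi-likelihood), which is not a call. Without cardiomyocyte library 3 it was called lower (-0.84, adjusted p = 0.0200), and so it was with library totals (-1.19, adjusted p = 0.00124) and upper quartile scaling (-0.61, adjusted p = 0.0445). Its near copy Lyz1, 5509 bases away, stood at 0 to 0.676 CPM, and reads of the 2 copies may be split between them.

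Ptprc (ENSMUSG00000026395, mm9 chr1:139959992-140071843, minus strand) encodes CD45, the phosphatase on the surface of nearly all leukocytes. It had 0, 12 and 15 counts in the cardiomyocyte libraries and 3, 9 and 5 counts in the nonmyocyte libraries. That is 0, 0.622 and 0.727 CPM against 0.224, 0.870 and 0.388 CPM, and the fractions overlapped. With no filter the log2 fold change was 0.09 ± 1.16 (SE; adjusted p = 0.960, edgeR quasi-likelihood). Of its exon bases, 12.8% lie in other annotated genes.

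**Figure D2:**
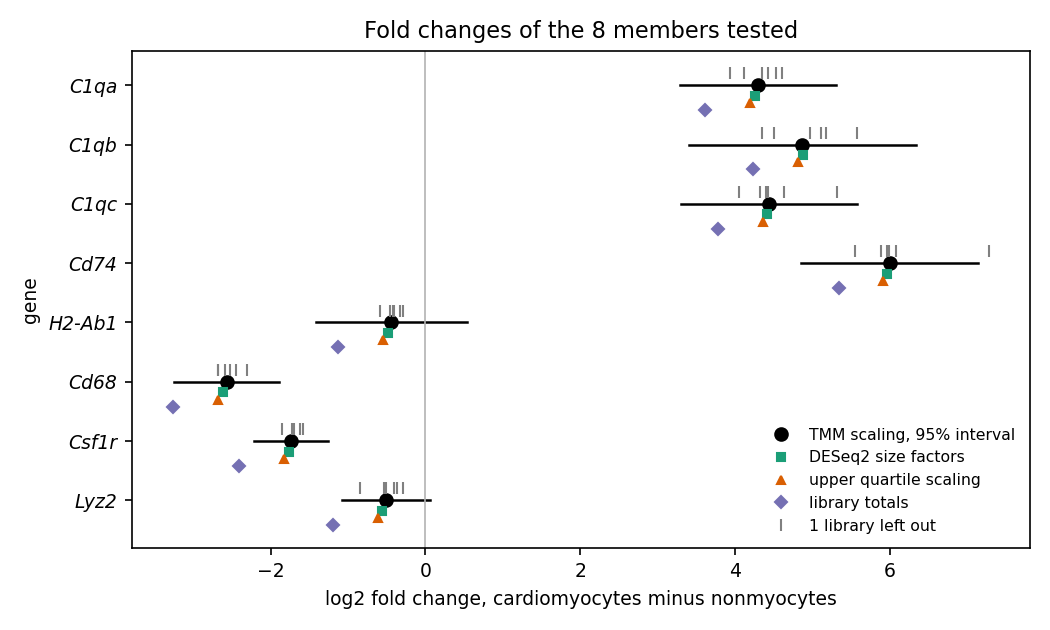
Log2 fold change (cardiomyocyte minus nonmyocyte) of the 8 tested members from edgeR, with 95% intervals. The adjusted p was under 0.05 for C1qa, C1qb, C1qc, Cd74, Cd68 and Csf1r, and not for H2-Ab1 or Lyz2. Any other marks are values from the other scalings and from fits with a library left out. C1qa, C1qb, C1qc and Cd74 lie between 4.30 and 6.00, Cd68 and Csf1r at -2.57 and -1.74, and the intervals of H2-Ab1 and Lyz2 include 0.

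Summed over the 10 genes with TMM scaling, the 2 fractions held similar levels, from 102 to 115 CPM in cardiomyocytes and from 93.2 to 105 CPM in nonmyocytes. That similarity depends on the scaling. TMM set the library size below the total count in every cardiomyocyte library and above it in every nonmyocyte library. Library totals would thus lower the cardiomyocyte sums and raise the nonmyocyte sums. Their makeup differed. The C1q chains made up 24.8% to 37.9% of the sum in cardiomyocyte libraries and 0.568% to 2.12% in nonmyocyte libraries. Cd74 and the 2 class II chains made up 31.8% to 32.8% in cardiomyocyte libraries and 3.22% to 4.10% in nonmyocyte libraries. In cardiomyocyte libraries 1, 2 and 3 they summed to 37.8, 36.5 and 32.4 CPM, of which Cd74 alone gave 36.0, 33.5 and 30.0 CPM. H2-Ab1 averaged 2.19 CPM in cardiomyocytes and 3.02 CPM in nonmyocytes, so the larger share was that of Cd74 and not of the class II chains. Cd68, Csf1r and Lyz2 together made up 29.4% to 42.7% in cardiomyocyte libraries and 93.6% to 95.7% in nonmyocyte libraries. A single sum over these genes therefore hides opposite differences.

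**Figure D3:**
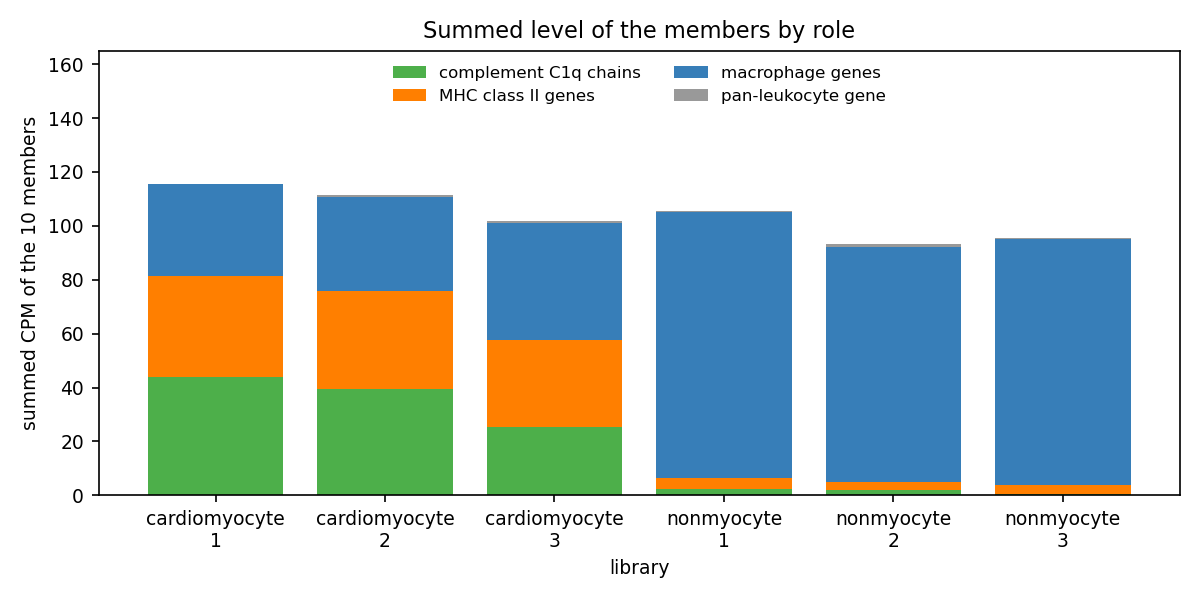
Summed CPM of the 10 genes in each polyadenylated RNA library, split by role. With TMM scaling the totals lie between 93.2 and 115 CPM in both fractions, and library totals would set the fractions apart differently. The C1q share and the class II share, there mostly Cd74, fill more of the bar in the 3 cardiomyocyte libraries.

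Compared per kilobase of exon, the order of levels in cardiomyocytes was Cd74, Lyz2, C1qb, C1qa, C1qc, Csf1r, Cd68, H2-Ab1, H2-Aa and Ptprc. Neighbours in that order had separate library ranges at only 3 steps: C1qa to C1qc, C1qc to Csf1r and H2-Ab1 to H2-Aa. In nonmyocytes Lyz2 was highest at 23.9 ± 3.02 CPM per kilobase, then Cd68 at 15.1 ± 3.80, Csf1r at 11.0 ± 0.632 and H2-Ab1 at 2.57 (SD, n = 3). These 4 were separated from each other by their ranges, and H2-Ab1 from C1qa. C1qa, C1qb, Cd74, C1qc and Ptprc followed with ranges that overlapped from each to the next, and H2-Aa was at 0. On that scale the ratio of Csf1r to the mean of the 3 C1q chains was 0.354, 0.304 and 0.407 in the cardiomyocyte libraries and 20.7, 21.1 and 70.4 in the nonmyocyte libraries.

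The ligands of the CSF1 receptor were both lower in cardiomyocytes. Csf1, the main macrophage growth factor, averaged 254 ± 91.3 CPM in cardiomyocytes and 4015 ± 210 CPM in nonmyocytes (SD, n = 3), a log2 fold change of -3.98 ± 0.27 (adjusted p = 3.53e-08, edgeR quasi-likelihood). Il34, the other ligand, averaged 2.63 and 14.02 CPM in the same order (log2 fold change -2.40 ± 0.31). Receptor and ligands were thus all lower in cardiomyocytes. The median of the 2 ligands, -3.19, stands beside a median of -0.02 over all tested genes.

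Other macrophage and monocyte genes were mixed as well. Of the 28 genes listed, 14 were tested: 3 were higher in cardiomyocytes, 3 were lower and 8 were not called, with a median of 0.04. The 3 higher genes were Lyve1, Mrc1 and Itgam. Lyve1, a hyaluronan receptor of resident macrophages and lymphatic endothelium, averaged 4.04 CPM in cardiomyocytes and 0.135 CPM in nonmyocytes (log2 fold change 4.74 ± 0.84). Mrc1, the mannose receptor, averaged 4.47 and 0.602 CPM (2.85 ± 0.61). Itgam, the CD11b integrin chain, had a log2 fold change of 1.70 with an adjusted p of 0.0233 by edgeR's quasi-likelihood test. Leaving out cardiomyocyte library 3 ended the call (adjusted p = 0.158), as did leaving out nonmyocyte library 1 (adjusted p = 0.0748) or 2 (adjusted p = 0.0707). Library totals ended it too (1.02, adjusted p = 0.152).

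The 3 lower genes were Gpnmb, Lgals3 and Mertk. Gpnmb, a membrane glycoprotein of lipid-laden macrophages and other cells, averaged 1.82 CPM in cardiomyocytes and 177 CPM in nonmyocytes (log2 fold change -6.49 ± 0.26). Lgals3, galectin-3, which fibroblasts make too, averaged 0.719 and 79.4 CPM (-6.61 ± 0.30). Mertk, a receptor for the uptake of dying cells, averaged 3.09 and 9.72 CPM (-1.62 ± 0.33). Gpnmb and Lgals3 carried most of the summed level of this list in nonmyocytes, 273 to 319 CPM against 38.3 to 47.9 CPM in cardiomyocytes.

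The other 14 genes of that list had too few counts to be tested, and 5 of them, named after their values were seen, are given here. Timd4, a receptor of long-lived resident macrophages, had 34 counts over the cardiomyocyte libraries and 0 over the nonmyocyte libraries, at least 9.21-fold higher against a floor of 3 counts over the group. Cd163, a scavenger receptor, had 14 and 0 counts, at least 3.79-fold higher, with 40.2% of its exon bases shared. Marco, another scavenger receptor, went the other way, with 3 counts in cardiomyocytes and 57 in nonmyocytes (ratio 23.4, counting interval 7.61 to 117). Emr1, which encodes F4/80, stood at 0, 1.502 and 0.970 CPM in cardiomyocytes and at 0.299, 0.966 and 0.621 CPM in nonmyocytes, with overlap. Sfpi1, which encodes PU.1, stood at 1.55, 2.07 and 0.921 CPM and at 0.746, 0 and 0.0776 CPM. Timd4, Cd163 and Sfpi1 were thus higher in cardiomyocytes, Marco was lower and Emr1 overlapped. Since these 5 were picked by their values, they give no direction for the 14 genes not tested.

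Pan-leukocyte genes gave no common direction. Of the 16 genes listed, 9 were tested: 2 were higher in cardiomyocytes (Inpp5d and Laptm5), 2 were lower (Arhgdib and Lsp1) and 5 were not called, with a median of 0.29. Inpp5d, the phosphatase SHIP1, averaged 5.42 and 1.56 CPM (log2 fold change 1.80 ± 0.46). Arhgdib averaged 7.56 and 154 CPM (-4.39 ± 0.21). Laptm5, a lysosomal membrane protein, was barely called (1.12, adjusted p = 0.0471, edgeR quasi-likelihood) and lost its call when any library but nonmyocyte library 1 was left out (adjusted p 0.0574 to 0.132). Lsp1, an actin-binding protein, lost its call without nonmyocyte library 1 (-0.84, adjusted p = 0.0507) and with the replicate number as a block (adjusted p = 0.0972).

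Further genes of the class II pathway were mostly not called. Of the 17 genes listed, 9 were tested: 1 was higher in cardiomyocytes, 3 were lower and 5 were not called, with a median of -0.71. Lgmn, a lysosomal protease, averaged 174 and 89.7 CPM (log2 fold change 0.96 ± 0.17). With library totals Lgmn was not called (0.27, adjusted p = 0.111, edgeR quasi-likelihood), which left 0 genes of this list higher. Cd80, a costimulatory ligand for T cells, had 4 counts over the cardiomyocyte libraries and averaged 12.2 CPM in nonmyocytes (-6.99 ± 0.61). H2-DMa, which helps load peptides, averaged 0.629 and 4.42 CPM (-2.57 ± 0.70). Ifi30, a thiol reductase of antigen processing, averaged 4.06 and 25.0 CPM (-2.69 ± 0.31), with 41.5% of its exon bases shared. Ciita, the master regulator of class II transcription, and the class II gene H2-Eb1 were not called.

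Class I presentation, which most cell types carry out, had 13 tested genes of 15 in the table. In cardiomyocytes 3 were higher (Erap1, Psme1 and Psmb9), 4 were lower (B2m, H2-K1, Pdia3 and Calr) and 6 were not called, with a median of -0.26. B2m, the light chain of class I molecules, averaged 32.7 and 293 CPM (log2 fold change -3.14 ± 0.33). H2-K1, a class I heavy chain, averaged 41.3 and 183 CPM (-2.14 ± 0.20). Erap1, which trims peptides, averaged 26.2 and 8.09 CPM (1.71 ± 0.35). Psmb9, an immunoproteasome subunit, lost its call without cardiomyocyte library 2 or 3 or nonmyocyte library 1 or 3 (adjusted p 0.101 to 0.147, edgeR quasi-likelihood). With library totals 10 of these genes were lower.

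Interferon response genes, which raise antigen presentation in many cells, were mostly lower in cardiomyocytes. Of 16 tested 1 was higher, 10 were lower and 5 were not called, with a median of -2.38. Isg15, a ubiquitin-like protein, averaged 2.27 and 87.5 CPM (log2 fold change -5.20 ± 0.39), and Ifit3, which binds viral RNA, averaged 0.563 and 32.6 CPM (-5.61 ± 0.43). Ifngr2, a chain of the interferon gamma receptor, averaged 409 and 87.4 CPM (2.23 ± 0.18).

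Most of the other complement genes tested were lower in cardiomyocytes, where the C1q chains were higher. Of 12 tested 2 were higher in cardiomyocytes, 9 were lower and 1 was not called, with a median of -2.99. C1s, a protease of the complex that holds C1q, averaged 3.75 and 52.2 CPM (log2 fold change -3.85 ± 0.26). C3, the central component, averaged 25.0 and 517 CPM (-4.37 ± 0.20), and Serping1, the C1 inhibitor, averaged 38.1 and 886 CPM (-4.56 ± 0.25). The 2 higher genes were C1qbp, a mitochondrial protein first found by its binding to C1q (1.05 ± 0.16), and Cd93, a surface protein of endothelial cells (3.70 ± 0.35, with 60.5% of its exon bases shared). Cfd, the protease factor D, was not tested and had 93 counts in cardiomyocytes and 0 in nonmyocytes, at least 25.2-fold higher (named after its values were seen).

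Lysosome genes, to which Cd68 is related by location, were more often lower. Of 19 tested 3 were higher (Ctsc, Npc1 and Psap), 13 were lower and 3 were not called, with a median of -1.20. Ctsz, a cathepsin, averaged 26.1 and 511 CPM (log2 fold change -4.29 ± 0.18), and Ctsc, another, averaged 17.9 and 2.98 CPM (2.59 ± 0.31). The lower level of Cd68 in cardiomyocytes thus went with lower levels of most tested genes of this list.

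**Figure D4:**
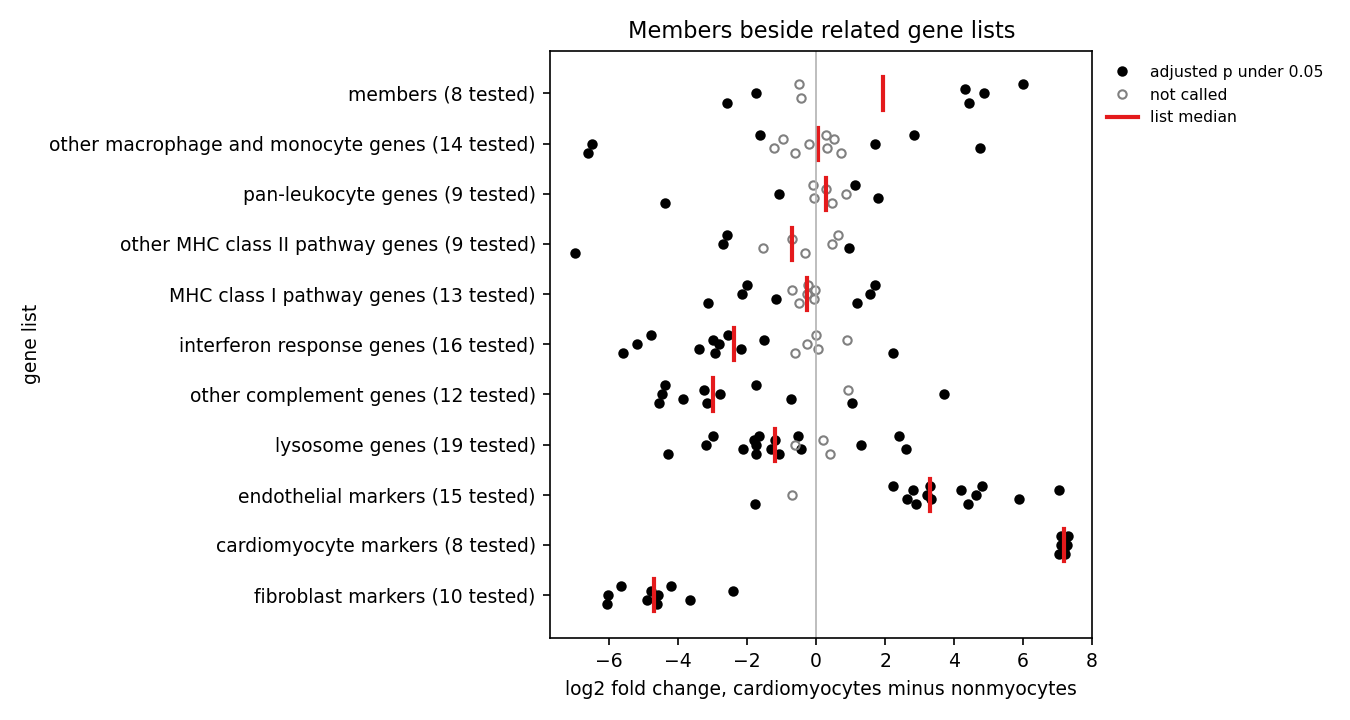
Log2 fold change (cardiomyocyte minus nonmyocyte) of the tested genes of each list; filled points have an adjusted p under 0.05, open points do not, and red bars are list medians. Macrophage and pan-leukocyte lists spread to both sides like the members, interferon, complement and lysosome lists lie mostly left of 0, and endothelial markers lie mostly right of 0.

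Markers of other cells that could be present were read beside these values, and their part in the members' differences was not tested. None of the 18 T and NK cell genes could be tested, and their summed level was 1.36 to 4.75 CPM in cardiomyocytes and 0.821 to 2.71 CPM in nonmyocytes, with Gzmb and Ncr1 at 0 in all libraries. For B and plasma cells 10 genes were in the table. The tested 2 were Sdc1, also made by other cells and lower in cardiomyocytes (-4.86), and Blk, a B cell kinase with 320 counts in cardiomyocytes and 2 in nonmyocytes (ratio 130, counting interval 35.7 to 1078). Neutrophil genes summed to 0.466 to 0.775 CPM in cardiomyocytes and 5.82 to 7.99 CPM in nonmyocytes, and the tested 2 of 12, Camp and Mmp8, were lower in cardiomyocytes. Camp had 3 counts in cardiomyocytes and 108 in nonmyocytes (ratio 44.3, counting interval 14.8 to 218), and Mmp8 had 1 and 100 (ratio 123, counting interval 21.6 to 4910). Both passed the filter on low counts through the nonmyocyte libraries alone. Neutrophil genes too low to be tested went both ways. Csf3r had 12 counts in cardiomyocytes and 0 in nonmyocytes, S100a9 had 3 and 0, and Retnlg had 2 and 0. S100a8 had 0 and 23, Ltf 3 and 9, Ngp 0 and 4, and Mpo 0 and 3. Ly6g, Elane and Cxcr2 had 0 in all libraries.

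Dendritic cell genes summed to 17.8 to 25.3 CPM in cardiomyocytes and 4.25 to 6.21 CPM in nonmyocytes. Of that, Zbtb46, which endothelial cells express too and the single gene tested of 10, averaged 17.98 and 4.55 CPM (log2 fold change 1.99 ± 0.28). Clec9a, a receptor of the dendritic cells that cross-present antigen, had 129 counts in cardiomyocytes and 0 in nonmyocytes, at least 34.9-fold higher. Among the other dendritic cell genes, Xcr1 had counts in both fractions, with Batf3 and Cd209a at 0 in all libraries and Flt3 at 0 in cardiomyocytes and 1 count in nonmyocytes. A count of 0 need not mean absence. The lysosome gene Npc2 and the class I gene Tap1 also had 0 counts in all libraries. The endothelial marker Pecam1 had 5 counts in cardiomyocytes and 0 in nonmyocytes. Why these counts were so low was not tested. Mast cell and platelet genes summed to 27.1 to 49.8 CPM and 12.6 to 16.9 CPM, and 3 of 5 tested were higher in cardiomyocytes (Gp1ba, Kit and Ppbp), the other 2 being not called. In 1 of the 5 every cardiomyocyte library lay above every nonmyocyte library. Besides Kit, the mast cell genes had few counts: Fcer1a and Ms4a2 had 0 in all libraries and Cpa3 had 1 in each fraction. Mcpt4 had 4 in cardiomyocytes and 0 in nonmyocytes, and Tpsb2 had 3 and 0. Ppbp, a platelet chemokine, overlapped between fractions and lost its call without cardiomyocyte library 1 (1.77, adjusted p = 0.0524, edgeR quasi-likelihood) or nonmyocyte library 1 (2.83, adjusted p = 0.0505). Of 15 tested endothelial markers 13 were higher in cardiomyocytes, 1 was lower (Eng) and 1 was not called, with a median of 3.30. Cdh5, the cadherin of endothelial junctions, averaged 279 and 37.5 CPM (2.90 ± 0.26).

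The small RNA libraries, which do not use the polyadenylated RNA, were read for microRNAs of blood cells. The arms of miR-142 and miR-223, microRNAs made mostly by blood cells, are shown with the seed (bases 2 to 8) in capitals, since the seed sets which messenger RNAs they bind. Sequences are from RefSeq for GRCm38.p6, and the 4 arms have 4 different seeds.

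mmu-miR-142a-5p: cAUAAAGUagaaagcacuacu

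mmu-miR-142a-3p: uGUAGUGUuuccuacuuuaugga

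mmu-miR-223-3p: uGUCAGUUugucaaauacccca

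mmu-miR-223-5p: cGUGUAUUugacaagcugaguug

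In mm9 the 5p arm of miR-142a lies at chr11:87570369-87570389 and the 3p arm of miR-223 at chrX:93438223-93438244. Total counts ran from 412739 to 6311625 in the cardiomyocyte libraries and from 83170 to 1255622 in the nonmyocyte libraries. In the shallowest library 3 counts stand for 20.4 CPM.

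The arm miR-142a-5p stood at 96.5, 82.0 and 106 CPM in the cardiomyocyte libraries, and at 11.8, 5.75 and 27.1 CPM in the nonmyocyte libraries. The fractions did not overlap, as in 21.3% of all tested arms. The cardiomyocyte libraries held 24, 149 and 342 counts, and the nonmyocyte libraries 24, 6 and 4. The highest nonmyocyte value, 27.1 CPM, was thus 4 counts in the shallowest library, near its floor of 20.4 CPM for 3 counts. The log2 fold change was 2.91 ± 0.70 (SE; 95% interval 1.28 to 4.54; adjusted p = 0.0116, edgeR quasi-likelihood). Of the 343 arms tested, 19.0% were called higher in cardiomyocytes. Without nonmyocyte library 2 the call was lost (2.36, adjusted p = 0.0683), and so it was with library totals (1.31, adjusted p = 0.102).

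The arm miR-223-3p had 2, 39 and 94 counts in the cardiomyocyte libraries and 3, 0 and 1 counts in the nonmyocyte libraries. That is 8.04, 21.5 and 29.1 CPM against 1.48, 0 and 6.79 CPM. These values did not overlap, but the nearest ones were 2 counts in cardiomyocyte library 1 and 1 count in nonmyocyte library 3. Both lay under the floor of 3 counts in their libraries (12.1 and 20.4 CPM), so these 2 libraries cannot be told apart. The log2 fold change was 3.92 ± 0.98 (SE; adjusted p = 0.0131, edgeR quasi-likelihood), and it was not called without nonmyocyte library 2 (3.02, adjusted p = 0.0914) or with library totals (2.36, adjusted p = 0.0660). Without cardiomyocyte library 2 or 3, or without nonmyocyte library 1, it had too few counts to be tested. The other arms had few counts and were not tested: miR-142a-3p had 1, 3 and 16 against 2, 2 and 0, and miR-223-5p had 5, 2 and 4 against 2, 0 and 0. For both tested arms the direction was that of the C1q chains and Cd74 and the opposite of that of Cd68 and Csf1r. Ptprc had no clear direction (0.09 ± 1.16 with no filter). The neutrophil genes Camp and Mmp8 were lower in cardiomyocytes, while neutrophil genes too low to be tested went both ways. Which cells the arms came from was not tested.

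**Figure D5:**
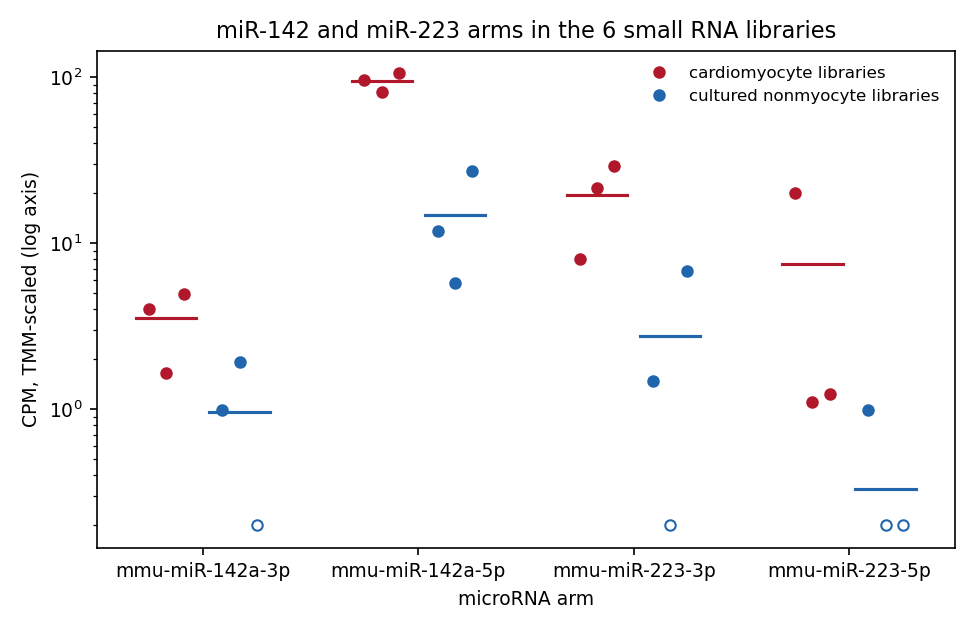
Level of the miR-142a and miR-223 arms in the 6 small RNA libraries (CPM on a log axis; points are libraries, horizontal lines are means, open circles are libraries with 0 counts). The 3 cardiomyocyte libraries of miR-142a-5p lie between 82.0 and 106 CPM, above the nonmyocyte libraries at 5.75 to 27.1 CPM. The value of 27.1 CPM is 4 counts in the shallowest library.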

How the data were processed

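The authors deposited raw whole-number counts, 1 table for genes and 1 for microRNA arms. The submitters' processing notes list TopHat 1.3.0, Bowtie, HTSeq, DESeq, edgeR and the mouse build mm9 and state no roles. How reads were assigned to genes is not given in the sources. A line of library totals in the small RNA table, which equals the summed arms, was not used.

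The analysis used R 4.3.3 with edgeR 4.0.16 and limma 3.58.1, and Python 3.11.15, pandas 2.3.3 and scipy 1.17.1 for summaries and matplotlib 3.10.9 for plots. Genes under the filterByExpr limit (minimum count 10) were dropped, libraries were scaled by TMM, and the 3 cardiomyocyte and 3 nonmyocyte libraries were compared, per assay, with the robust quasi-likelihood test (two-sided, Benjamini-Hochberg over all features tested, threshold 0.05). SE is the log2 fold change divided by the square root of the test's F. The test was tried on simulated counts with known changes. No pair of libraries agreed within sampling noise. The 95% intervals of log2 fold changes come from that test and include the spread between libraries. Intervals of count ratios and floors cover counting error only.

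The members and lists were chosen with earlier results of these data known. Named besides the members were, of each list, the 3 genes with the highest mean level and the called gene with the largest fold in each direction, and the 5 genes most alike in pattern. Not all of these are printed, and other list genes were picked with their values known. The alternatives tried were DESeq2 size factors, upper quartiles and library totals as scalings, no filter, DESeq2 1.42.0, limma voom, the replicate number as a block, and each library left out in turn.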

Additional observations from a re-analysis of the deposited data

How the results depend on the processing

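C1qa, C1qb, C1qc, Cd74, Cd68 and Csf1r kept their direction and call in all 13 alternatives, with log2 fold changes of 3.61 to 4.61, 4.24 to 5.58, 3.78 to 5.32, 5.34 to 7.29, -3.27 to -2.30 and -2.42 to -1.58. With library totals 4 members were called lower in place of 2, and 7106 genes in place of 4732. Leaving out 1 library gave 4 members higher each time and 2 to 3 lower, 4211 to 5367 genes higher and 4286 to 5195 lower. In small RNA, library totals gave 28 arms higher in place of 65 and 187 lower in place of 116. Leaving out 1 library gave 29 to 95 higher (29 without nonmyocyte library 2, 36 without cardiomyocyte library 2) and 78 to 128 lower. The causes were not tested. The arm miR-223-3p had no value without cardiomyocyte library 2 or 3 or nonmyocyte library 1, since it fell below the filter. With the replicate number as a block, 4656 genes were higher and 4843 lower, 4 members were higher and 3 lower (Lyz2 -0.57, adjusted p = 0.0283, edgeR quasi-likelihood), and 59 arms were higher and 99 lower. Deviations of same-numbered libraries correlated at 0.163, 0.0504 and 0.100 in polyadenylated RNA and at 0.0437, -0.0988 and 0.245 in small RNA, and cardiomyocyte library 2 correlated best with nonmyocyte library 3, so the numbers were not taken as pairs. Depth limits H2-Aa, Ptprc and the rarer microRNA arms, which rest on few counts.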

Other observations

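Cardiomyocyte library 1 had the highest summed level of the other macrophage genes among the cardiomyocyte libraries (47.9 CPM, against 44.0 and 38.3) and the lowest of endothelial markers (778 CPM, against 1401 and 1511). It also held the highest level of platelet genes. Pf4, platelet factor 4, stood at 13.6 CPM there and at 4.09 and 2.33 CPM in cardiomyocyte libraries 2 and 3. Ppbp stood at 11.4, 2.54 and 0.921 CPM in the same order.

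Over the 6 polyadenylated RNA libraries, the genes whose log2 CPM followed the mean of the 10 members most closely were Grhpr, 6030458C11Rik, St3gal5, Phldb1 and Psmc3. Pearson's r was 0.999 for the first and 0.997 for the fifth, out of 12240 genes ranked. The libraries share fraction and depth, and the correlation is a description. Their log2 fold changes were 1.25, 1.07, 0.96, 0.42 and 0.61 in that order.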
